A study of Mus musculus with 12 samples.

Results

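The cytosolic ribosomal protein genes were followed through virgin, pregnant and lactating mouse mammary epithelium, in sorted luminal and basal cells. Members were the rows of the count table whose mouse gene symbol is Rpl, Rps or Rplp followed by a number and at most 1 letter, and which RefSeq annotates as protein-coding. The rule found 80 genes among 27179 in the table, 50 of the large subunit and 30 of the small. Of these, 77 passed the filter on low counts, as did 15969 genes in all. Rpl10l, Rpl39 and Rpl39l did not pass and have levels only. The rule leaves out a few ribosomal proteins with other names, such as Rpsa, Fau, Rack1 and Rps3a1, which are treated apart.

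Cytosolic ribosomal proteins assemble with ribosomal RNA in the nucleolus into a small subunit, which decodes the messenger RNA, and a large subunit, which forms peptide bonds. Their genes are among the most transcribed of most cells and usually move together. Their messenger RNAs begin with a run of pyrimidines, the 5′ terminal oligopyrimidine tract, through which growth signals passing through mTOR and the protein LARP1 set their translation and stability. In the mammary gland, luminal cells make and secrete milk at lactation, and basal myoepithelial cells contract to expel it.

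The animals were wild-type female mice of strain FVB/N, with no treatment and no transgene in any group. The groups were basal lactating, basal pregnant and basal virgin cells, and luminal lactating, luminal pregnant and luminal virgin cells. Pregnant animals were at day 18.5 and lactating animals at day 2 of lactation. There were 2 mice per stage and 2 libraries per group, 12 in all. The labels name neither ages nor sort antibodies. With 2 libraries a group, p-values measure only the spread between these samples.

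Library totals lay between 20015386 and 24723827 counts, and levels are CPM (counts over the scaled library total) with scaling by TMM, a normalisation that assumes most genes unchanged. The 7 basal markers summed to 15457 to 45238 CPM in basal libraries and 63.2 to 400 CPM in luminal libraries. Within luminal libraries these basal markers summed to 63.2 to 92.6 CPM in virgin, 330.5 to 400 CPM in pregnant and 89.5 to 98.1 CPM in lactating cells. The 6 luminal markers summed to 1123 to 1700 CPM in basal libraries. In luminal libraries they summed to 11112 to 11977 CPM in virgin, 10255 to 12820 CPM in pregnant and 4170 to 4882 CPM in lactating cells, and 5 of 6 were called lower in lactating than in pregnant ones. The 11 leukocyte markers summed to 1.70 to 2.55 CPM in basal lactating, against 10.5 to 12.2 CPM in basal pregnant libraries, with 4 of 7 tested lower, and to 5.88 to 6.36 CPM in luminal lactating, against 6.18 to 7.39 CPM in luminal pregnant libraries. The 6 endothelial markers were all called lower in pregnant than in virgin cells, at 82.5 to 102 CPM in basal pregnant, against 188 to 304 CPM in basal virgin libraries, and at 15.9 to 17.2 CPM in luminal pregnant, against 41.9 to 66.3 CPM in luminal virgin libraries. The 6 fibroblast markers summed to 155 to 177 CPM in basal lactating, against 231 to 273 CPM in basal pregnant libraries, and to 109.8 to 117 CPM in luminal lactating, against 45.4 to 67.9 CPM in luminal pregnant libraries. The part of these marker shifts in the results was not tested. Luminal libraries ran in lane 1 and basal libraries in lane 2, so lane and cell type cannot be told apart. Comparisons between stages lie within a lane. A lower level in sorted bulk cells can mean fewer cells of a type or less RNA per cell, and these cannot be told apart.

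Member levels spanned a wide range. Per kilobase of counted gene length, over all 12 libraries, the highest mean levels were those of Rplp1 at 1037 CPM per kb, Rpl41 at 905 CPM per kb and Rpl8 at 888 CPM per kb. Rplp1 encodes an acidic protein of the stalk that recruits elongation factors, Rpl41 the smallest ribosomal protein, and Rpl8 a protein near the peptidyl transferase centre. The lowest were Rpl3l, a striated muscle relative of Rpl3, at 0.143 CPM per kb, Rpl39l at 0.0823 CPM per kb, and Rpl10l, known from the testis, with 0 counts in every library. A count of 0 allows up to 3 counts per library. Rpl39, also not tested, had 70 counts over all libraries.

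The summed share of counts held by the 80 members was lower at each later stage in both cell types. In basal cells it was 1.29% and 1.51% in the virgin libraries, 1.21% and 1.12% in the pregnant libraries, and 0.739% and 0.730% in the lactating libraries. In luminal cells it was 2.10% and 2.03% in the virgin libraries, 1.58% and 1.42% in the pregnant libraries, and 0.539% and 0.527% in the lactating libraries. Libraries of different stages did not overlap within a cell type. Messenger RNA of milk proteins moved with the luminal shares: 13 milk protein genes held 1.87% and 1.82% of virgin, 19.3% and 22.3% of pregnant and 51.7% and 50.5% of lactating luminal counts. In basal libraries they held at most 0.830%. With those genes taken out of the total, the luminal virgin libraries had 2.14% and 2.07%, the pregnant ones 1.95% and 1.82%, and the lactating ones 1.12% and 1.065%. The lactating share thus stayed below the pregnant share when milk transcripts were not counted. The step from virgin to pregnant was not seen on the TMM scale. There the members summed to 15383 and 14861 CPM in luminal virgin and 15693 and 15364 CPM in luminal pregnant libraries. In basal cells the sums were 10383 and 12451 CPM in virgin and 10767 and 10465 CPM in pregnant libraries. Lactating libraries were lower on that scale too, at 10186 and 9850 CPM in luminal and 7135 and 6716 CPM in basal cells. No test was made on these sums.

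**Figure D1:**
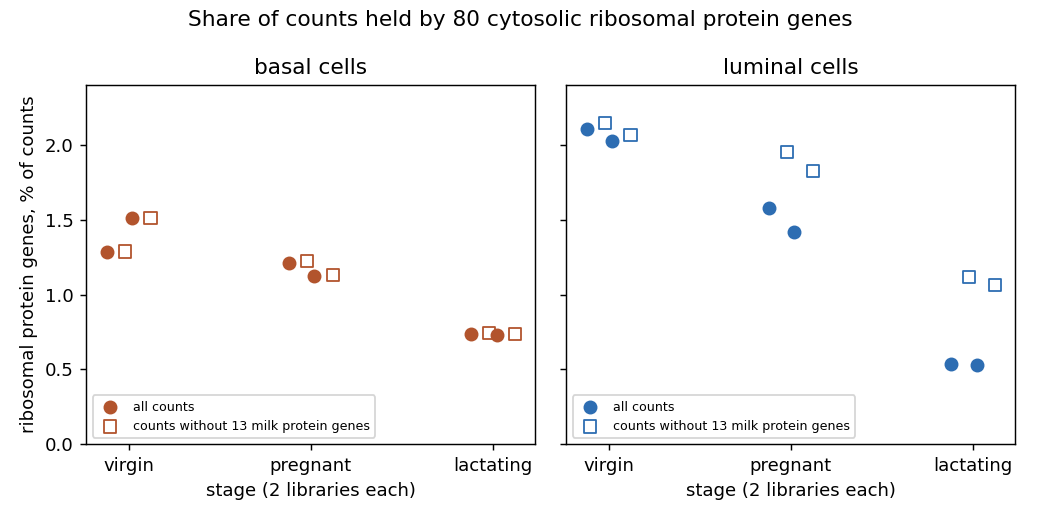
Share of counts held by the 80 ribosomal protein genes (y axis, %) at each stage (x axis) in basal and luminal cells, 1 point per library, with filled circles for all counts and open squares for counts without 13 milk protein genes. Lactating libraries are lowest in both cell types, at 0.730% to 0.739% of all counts in basal cells and 0.527% to 0.539% in luminal cells.

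The small subunit's part of the members' counts was 37.7% and 37.4% in basal lactating libraries, against 37.4% and 37.7% in basal pregnant ones. In luminal cells it was 35.8% in both lactating libraries, against 36.7% and 37.0% in the pregnant ones. The basal libraries overlapped between these stages, and the luminal lactating libraries lay about a percentage point below the pregnant ones. No test was made on this share.

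In luminal cells, ribosomal protein genes fell together at lactation relative to pregnancy. Of 77 tested members, 66 fell and 1 rose at an adjusted p below 0.05 by edgeR's quasi-likelihood test, against 24.6% of all tested genes lower and 23.6% higher. The members' median log2 change was -0.65, a fold of 0.638, where the median of all tested genes was 0.00. The quartiles of the members' changes were -0.83 and -0.48, and 74 of 77 changes were negative.

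The member that fell furthest in luminal cells was Rpl10a, which encodes a large-subunit protein of the L1 stalk. Rpl10a had 21.9 and 24.6 CPM in lactating luminal libraries, against 50.4 and 47.9 CPM in pregnant ones, a log2 change of -1.08 ± 0.11 (SE, n = 2 libraries each, edgeR adjusted p = 3.79e-06). Rps9, a small-subunit protein that acts early in assembly, had 173 and 169 CPM in lactating, against 335 and 348 CPM in pregnant luminal libraries (-0.997 ± 0.12). In both genes the lactating libraries lay far below the pregnant ones, with no overlap. Rpl22 (-0.96 ± 0.12), Rplp0 (-0.95 ± 0.12) and Rpl29 (-1.03 ± 0.37) complete the 5 largest falls, the last on only 496 counts over all libraries.

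Genes with known roles outside peptide synthesis were among those that fell. Rpl5 and Rpl11 encode proteins that join 5S ribosomal RNA and can bind the p53 regulator MDM2. Rpl5 had 11.6 and 11.1 CPM in lactating luminal libraries, against 21.5 and 21.7 CPM in pregnant ones (-0.93 ± 0.12, edgeR adjusted p = 3.86e-05). Rpl11 had 68.2 and 73.0 CPM, against 90.9 and 84.0 CPM (-0.31 ± 0.12, edgeR adjusted p = 0.0431). Both fell without overlap. The Rpl11 call was lost when any of 10 of the 12 libraries was left out, and also with DESeq2's size factors (-0.23, edgeR adjusted p = 0.112).

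Rps6 is phosphorylated by S6 kinase, Rps3 lines the messenger RNA entry channel, and Rps19 is the gene most often mutated in human Diamond-Blackfan anaemia. Log2 changes at lactation in luminal cells were -0.62 ± 0.13 for Rps6, -0.90 ± 0.13 for Rps3 and -0.91 ± 0.11 for Rps19. Rps27a, a fusion of ubiquitin and a small-subunit protein, changed by -0.54 ± 0.12, and Rpl4, which lines the peptide exit tunnel, by -0.59 ± 0.12. All 5 passed the test (edgeR adjusted p between 1.61e-05 and 0.00298).

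The members farthest above the median in luminal cells were Rps27l, Rpl3l and Rpl41, of which Rpl3l (0.21 ± 0.96) rests on 62 counts over all libraries. Rps2 and Rps25 are described with them because their change differed between the cell types. Rps27l encodes a paralog of RPS27 and is known in other settings as a p53 target. Rps27l had 85.9 and 85.0 CPM in lactating luminal libraries, against 64.6 and 61.8 CPM in pregnant ones, a rise of 0.43 ± 0.11 in log2 (edgeR adjusted p = 0.0067). Scaled by library size alone, which puts the median of all genes at -0.85, Rps27l changed by -0.42. Its value relative to the other genes therefore rose, while its share of all luminal counts was lower at lactation.

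Rpl41 had 589.7 and 556 CPM in lactating luminal libraries, against 508 and 532 CPM in pregnant ones (0.14 ± 0.10, edgeR adjusted p = 0.286). It changed by -0.72 when scaled by library size alone. Rps2, a small-subunit protein of the messenger RNA entry channel, had 35.7 and 38.2 CPM, against 37.4 and 38.1 CPM (-0.03 ± 0.10), with overlapping libraries. Rps25, which several viral messenger RNAs need for initiation, had 102 CPM in both lactating libraries, against 119 and 124 CPM in pregnant ones (-0.25 ± 0.10, edgeR adjusted p = 0.0629). Rpl41, Rps2 and Rps25 did not pass the test.

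Basal cells also showed a decline of the set at lactation. Of 77 members, 66 fell and 0 rose at lactation relative to pregnancy (edgeR), against 17.3% of all tested genes lower and 15.7% higher. The median log2 change was -0.62, a fold of 0.649, where that of all genes was 0.01. The 11 members not called at an adjusted p of 0.05 included Rps27l, Rps6, Rpl7 and Rps27.

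In basal cells the stalk protein Rplp1 fell most, to 191 and 177 CPM in lactating libraries, against 409 and 363 CPM in pregnant ones (-1.07 ± 0.11, edgeR adjusted p = 4.2e-05). Rpl12, at the base of the stalk, had 51.1 and 47.3 CPM, against 99.8 and 104 CPM (-1.05 ± 0.12). The other stalk genes also fell, Rplp0 by 0.75 ± 0.12 and Rplp2 by 0.85 ± 0.12 on the log2 scale. In luminal cells the stalk changes were -0.95 ± 0.12 for Rplp0, -0.82 ± 0.11 for Rplp1 and -0.59 ± 0.12 for Rplp2. Rps18 (-0.97 ± 0.16), Rpl36a (-0.92 ± 0.19) and Rpl34 (-0.91 ± 0.17) were next among basal cells.

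Of the genes named by role, Rpl5 (-0.74 ± 0.12), Rpl11 (-0.66 ± 0.12), Rps3 (-0.64 ± 0.13), Rps19 (-0.82 ± 0.11), Rps27a (-0.86 ± 0.12) and Rpl4 (-0.63 ± 0.12) fell in basal cells at lactation. Rps6 had 21.1 and 20.3 CPM in lactating basal libraries, against 24.8 and 26.98 CPM in pregnant ones, and did not pass the test (-0.32 ± 0.13, edgeR adjusted p = 0.0649). It passed by library size alone (-0.37), as did Rpl7 (-0.37) and Rps27 (-0.54).

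**Figure D2:**
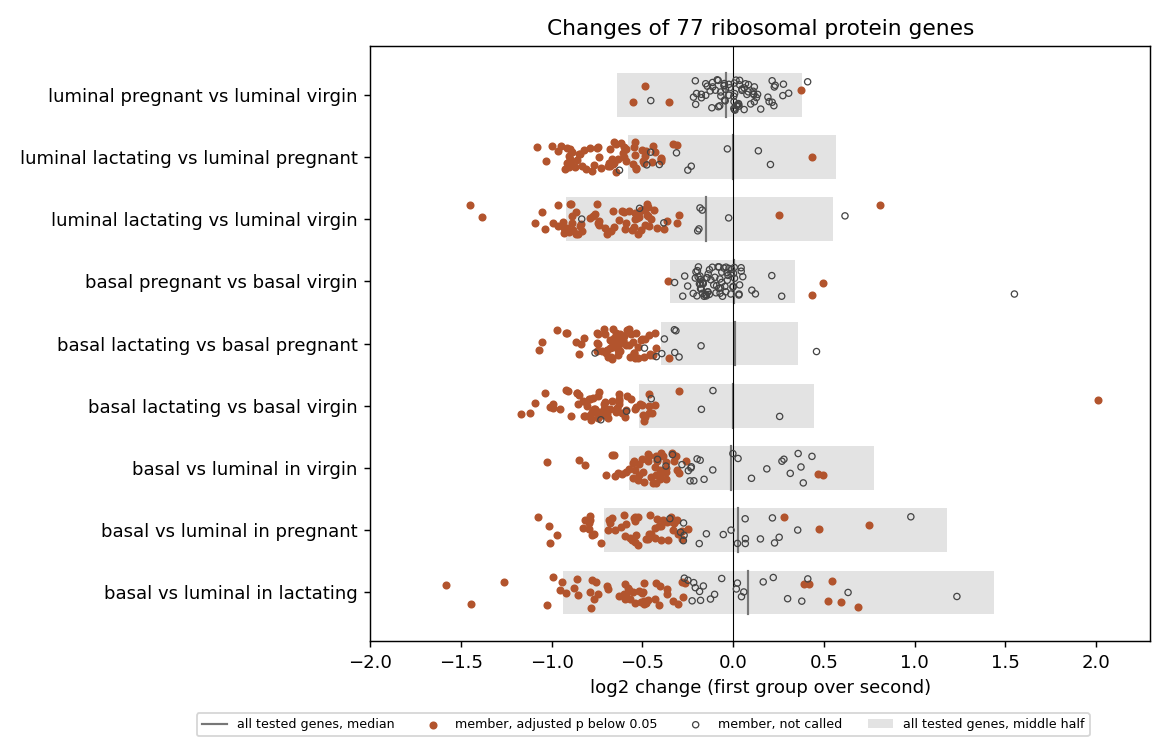
Log2 changes (x axis) of the 77 tested ribosomal protein genes in each comparison of 2 groups (rows), filled where the edgeR adjusted p is below 0.05; grey bars show the range between quartiles of all 15969 tested genes and a tick their median. Members crowd to the left in the 4 comparisons of lactating cells, with medians of -0.61 to -0.71, and sit near 0 in both comparisons of pregnant with virgin cells.

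Most members were also lower in lactating than in virgin cells. In luminal cells 66 members fell and 2 rose between lactating and virgin animals (median -0.61), against 33.4% of all genes lower and 26.7% higher, with an all-gene median of -0.15. In basal cells 70 fell and 1 rose (median -0.71), against 23.7% of all genes lower and 23.7% higher. These comparisons share their lactating libraries with those above.

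Rpl22 fell most between lactating and virgin luminal cells (-1.45 ± 0.12), followed by Rps27 (-1.38 ± 0.18), Rpl12 (-1.09 ± 0.12), Rps4x (-1.05 ± 0.11) and Rps9 (-1.04 ± 0.12). Rps27l rose by 0.81 ± 0.11 and Rpl41 by 0.25 ± 0.10 (edgeR adjusted p = 0.0476). The Rpl41 call was lost with the replicate block (edgeR adjusted p = 0.059) and in 10 of the 12 fits with 1 library left out, and its change was -0.10 when libraries were scaled without milk protein genes and -1.11 by library size alone. Rps27l changed by -0.55 by library size alone.

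In basal cells Rpl12 (-1.17 ± 0.12), Rplp1 (-1.12 ± 0.11), Rps19 (-1.09 ± 0.11) and Rps10 (-1.01 ± 0.15) were among those that fell most between lactating and virgin animals. Rpl3l was called higher (2.01 ± 0.74), but on 8 and 12 counts in lactating, against 3 counts in each virgin basal library. The call was lost in 6 of the 12 fits with 1 library left out and under 3 other settings.

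Pregnancy itself moved few members. Between pregnant and virgin luminal cells 1 member rose and 3 fell, against 21.8% of all genes higher and 24.0% lower, and the median log2 change was 0.01. The members that fell were Rps27 (-0.55 ± 0.17), Rpl22 (-0.48 ± 0.11) and Rpl27a (-0.35 ± 0.10), and Rps27l rose (0.37 ± 0.11). Without luminal virgin replicate 1 only 1 rose and 1 fell, and without luminal pregnant replicate 1 only 1 fell. Scaling by library size alone gave 0 higher and 65 lower, with an all-gene median of -0.54. Scaling without milk protein genes gave 0 higher and 15 lower, with an all-gene median of -0.23. Relative to that shift in all genes, the members' median stood 0.05 higher in both the TMM and the library-size fits.

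Between pregnant and virgin basal cells 2 members rose and 1 fell, against 15.6% of all genes higher and 14.4% lower (median -0.09). Rpl10a had 58.0 and 61.3 CPM in pregnant basal libraries, against 41.5 and 43.1 CPM in virgin ones (0.50 ± 0.10, edgeR adjusted p = 0.00249). Rps27l rose by 0.43 ± 0.12 on the log2 scale. The 2 basal virgin libraries differed in their member share, and the counts turned on them. Without basal virgin replicate 1, 2 members rose and 7 fell, and without replicate 2, 1 rose and 0 fell. Without basal pregnant replicate 2 the counts were also 1 and 0. Library size alone gave 1 higher and 17 lower.

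No member had a pregnancy change called different between the cell types. In the test of the luminal minus the basal pregnancy change, 0 of 77 members passed in edgeR, against 14.1% of all genes higher and 16.6% lower. Without adjustment 4 had a p below 0.05. With the replicate number as a block 3 passed, all higher, and DESeq2 called 2. Without basal virgin replicate 1, 8 passed, all higher, and without replicate 2, 2 passed, both lower.

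Basal cells had lower ribosomal protein transcript levels than luminal cells at all 3 stages under TMM scaling. In virgin animals 51 members were lower and 2 higher in basal cells, against 31.3% of all genes lower and 31.6% higher (median -0.40). In pregnant animals 55 were lower and 3 higher, against 33.9% and 35.9% of all genes (median -0.42). In lactating animals 49 were lower and 6 higher, against 35.4% and 39.1% (median -0.43). Without basal virgin replicate 1, only 27 were lower and 1 higher in virgin animals.

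The lactating comparison turned with the scaling. By library size alone 59 members were higher and 3 lower in lactating basal than in lactating luminal cells, with a median of 0.56, while the median of all genes was 1.07. Relative to the median of all genes, the members stood at -0.51 on both scales. In pregnant animals library size alone gave 5 higher and 32 lower.

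The stalk gene Rplp1 had 381 and 418 CPM in basal virgin, against 714 and 727 CPM in luminal virgin libraries (-0.85 ± 0.11, edgeR adjusted p = 2.15e-05). At pregnancy the difference was -1.02 ± 0.11 and at lactation -1.26 ± 0.11. Rplp0 led in pregnant animals, with 531 and 498 CPM in basal, against 1108 and 1062 CPM in luminal libraries (-1.08 ± 0.12). Rps26 (-0.82 ± 0.12), Rpl11 (-0.70 ± 0.11) and Rpl22 (-0.67 ± 0.11) were among the 5 most lowered in virgin basal cells, and Rps28 (-1.01 ± 0.13) and Rpl14 (-0.83 ± 0.13) in pregnant ones. At lactation Rpl41 (-1.44 ± 0.10), Rpl11 (-1.03 ± 0.12) and Rpl32 (-0.99 ± 0.14) joined them. By library size alone the lactating differences of Rpl11 and Rpl32 were -0.03 and 0.00, and neither passed.

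Members higher in basal cells were few. Rpl28 (0.49 ± 0.17) and Rpl9 (0.47 ± 0.16) were called in virgin animals, and Rpl13 (0.75 ± 0.20), Rpl34 (0.47 ± 0.17) and Rpl10a (0.28 ± 0.10) in pregnant ones. At lactation the 5 largest of the 6 called were Rpl10a (0.69 ± 0.11), Rpl9 (0.60 ± 0.18), Rpl13 (0.54 ± 0.23), Rpl7 (0.53 ± 0.13) and Rps12 (0.42 ± 0.17). Rpl10a had 38.3 and 36.6 CPM in basal lactating, against 21.9 and 24.6 CPM in luminal lactating libraries. The values for Rpl13, Rpl34 and Rps12 depended on how near-identical copies were counted. With the named copies added, Rpl13 was at -0.27 in pregnant and -0.51 in lactating animals, Rpl34 at -0.35 in pregnant and Rps12 at -0.08 in lactating animals. Rpl28, Rpl9, Rpl10a and Rpl7 have no named copy, so adding copies could not test their values. Of their sequence stretches, 34.96%, 21.9%, 62.6% and 49.3% also occur in transcripts of other genes. Members called higher in basal cells with over 35% shared numbered 0 in virgin, 2 in pregnant and 5 in lactating animals. With at most 35% shared they numbered 2, 1 and 1.

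The lactation change differed between the cell types for 8 members, 4 higher and 4 lower in luminal than in basal cells, against 18.2% and 17.9% of all genes. Library size alone, with an all-gene median of -0.80 for this difference, gave 0 higher and 65 lower, and with 1 library left out the count was between 2 and 10. It was 2 to 4 without any single pregnant or lactating library of either cell type. Rpl41 differed most, by 0.77 ± 0.14 (edgeR adjusted p = 0.0012). In basal cells it had 213 and 208 CPM in lactating, against 331 and 319.5 CPM in pregnant libraries (-0.63 ± 0.10), while in luminal cells it was not called lower. The others with a higher luminal change were Rps27l (0.61 ± 0.16), Rps2 (0.43 ± 0.15) and Rps25 (0.41 ± 0.15). These 4 differences were -0.04, -0.19, -0.38 and -0.40 by library size alone. The Rpl41 call held in all 12 fits with 1 library left out and that of Rps27l was lost without basal lactating replicate 2; the other 6 calls were each lost in at least 5 of these fits.

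In the opposite direction, Rpl7 fell in luminal cells (-0.90 ± 0.13) and had -0.32 ± 0.13 in basal cells, where it did not pass. Rpl7 had 434 and 398 CPM in basal lactating, against 528 and 512 CPM in basal pregnant libraries. Its luminal minus basal change was -0.58 ± 0.19, that of Rpl22 -0.53 ± 0.16, that of Rps9 -0.45 ± 0.17 and that of Rpl10a -0.41 ± 0.15. Over the 77 members the luminal and the basal lactation changes, which share no library, had a Pearson r of 0.36 and a Spearman rho of 0.14. The SD over members was 0.28 in luminal and 0.21 in basal cells, beside a median SE of 0.12 in both. Rpl3l, on 62 counts over all libraries, is included in the r, the rho and the SDs. Its basal change, 0.46, was the highest of any member, and the values were not computed without it.

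**Figure D3:**
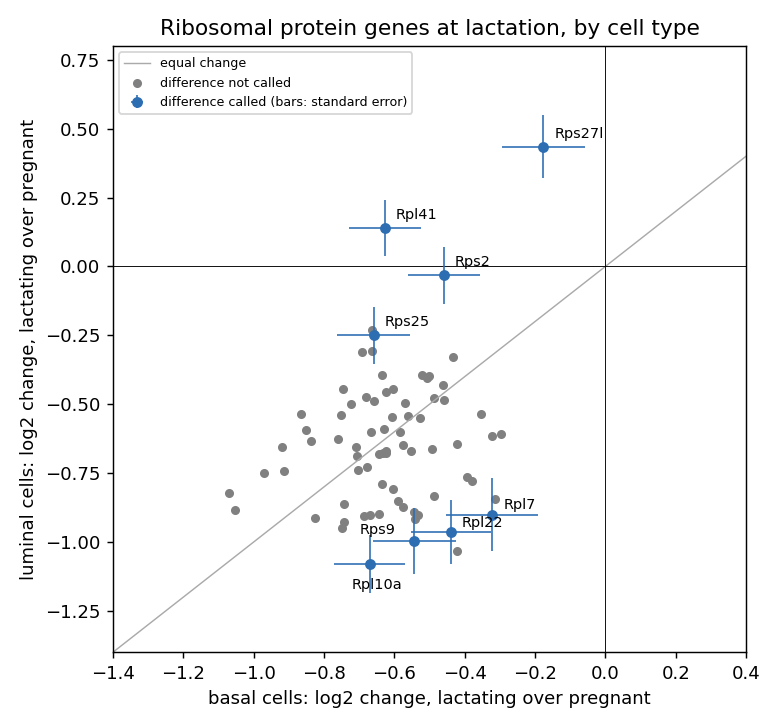
Log2 change of lactating over pregnant cells for each ribosomal protein gene in basal cells (x axis) and luminal cells (y axis); Rpl3l, on 62 counts, is left out. Blue points with SE bars are the 8 members whose luminal and basal changes differed at an edgeR adjusted p below 0.05; Rpl41 (0.14 in luminal cells) and Rps27l (0.43) lie above 0 on the luminal axis, and Rpl10a lies lowest on it at -1.08.

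Rps27 and Rps27l moved in opposite directions in luminal cells under TMM scaling, whereas by library size alone Rps27l was at -0.13 at pregnancy and at -0.42 and -0.55 in lactating against pregnant and virgin cells. Rps27l had 53.7 and 43.9 CPM in virgin, 64.6 and 61.8 CPM in pregnant and 85.9 and 85.0 CPM in lactating luminal libraries. Rps27 had 60.7 and 56.6 CPM in virgin, 35.7 and 44.4 CPM in pregnant and 23.3 and 21.7 CPM in lactating luminal libraries. No stage overlapped another for either gene. In basal cells Rps27l had 24.5 and 23.3 CPM in virgin, 31.5 and 33.1 CPM in pregnant and 30.9 and 26.2 CPM in lactating libraries. Rps27 there had 38.7 and 61.2 CPM in virgin, 42.8 and 41.1 CPM in pregnant and 30.3 and 29.5 CPM in lactating libraries, its virgin libraries standing on either side of the pregnant ones. Rps27l was lower in basal than in luminal cells at every stage, by 1.03 ± 0.12, 0.97 ± 0.12 and 1.58 ± 0.12 on the log2 scale in virgin, pregnant and lactating animals (edgeR adjusted p = 5.54e-06, 6.21e-06 and 4.6e-08).

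Rps27 lies at chr3:90212667-90213648 and Rps27l at chr9:66944624-66949522 (GRCm38.p6). Their coding sequences, both 255 bases long in GENCODE vM21, are shown because reads can be assigned to one or the other only where they differ. Capitals mark the 61 bases at which they differ (76.1% identity), with no more than 11 identical bases in a row.
Rps27: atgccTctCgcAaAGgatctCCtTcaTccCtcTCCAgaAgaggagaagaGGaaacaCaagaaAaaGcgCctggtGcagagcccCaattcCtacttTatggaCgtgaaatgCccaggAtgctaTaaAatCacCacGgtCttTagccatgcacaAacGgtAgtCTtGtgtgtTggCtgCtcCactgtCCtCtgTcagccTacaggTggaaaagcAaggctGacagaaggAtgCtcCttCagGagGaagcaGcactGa
Rps27l: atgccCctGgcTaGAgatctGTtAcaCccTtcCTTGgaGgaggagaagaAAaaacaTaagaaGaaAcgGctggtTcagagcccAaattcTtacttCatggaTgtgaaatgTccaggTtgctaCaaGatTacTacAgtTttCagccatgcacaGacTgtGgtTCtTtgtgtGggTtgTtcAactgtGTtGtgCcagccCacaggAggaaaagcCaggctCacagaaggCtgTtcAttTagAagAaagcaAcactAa

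These paralogs are thus distinct over any 50-base stretch of coding sequence. The same does not hold for Rps27rt, a gene on chromosome 9 annotated as protein-coding, whose coding sequence is identical to that of Rps27 at all 255 bases. Rps27rt held 57949 counts over the 12 libraries, and Rps27 11864. With the counts of Rps27rt added, Rps27 changed by -0.94 at lactation relative to pregnancy in luminal cells (edgeR adjusted p = 0.000163) and by -0.51 in basal cells (edgeR adjusted p = 0.0161). The fall of Rps27 at pregnancy in luminal cells did not pass in that form (-0.32, edgeR adjusted p = 0.0865).

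A pair of further paralogs falls outside the symbol rule. Rpl36al encodes a near-identical partner of Rpl36a. Rpl36al had 102 CPM in both lactating luminal libraries, against 76.6 and 69.8 CPM in pregnant ones (0.48 ± 0.11, edgeR adjusted p = 0.00297). In basal cells it had 28.6 and 23.1 CPM in lactating, against 36.9 and 34.0 CPM in pregnant libraries (-0.46 ± 0.11, edgeR adjusted p = 0.00883). On the TMM scale the luminal and basal changes of Rpl36al differed by 0.93 ± 0.16 (edgeR adjusted p = 0.000571). Rpl36a itself had 3.97 and 3.48 CPM in lactating, against 6.13 and 5.62 CPM in pregnant luminal libraries.

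Rpl22l1 is the paralog of Rpl22, an RNA-binding large-subunit protein. Rpl22l1 had 37.2 and 34.9 CPM in virgin, 45.5 and 48.1 CPM in pregnant and 32.5 and 33.9 CPM in lactating luminal libraries. It rose at pregnancy (0.37 ± 0.10) and fell at lactation (-0.49 ± 0.10). Rpl22 had 303 and 307 CPM in virgin, 221 and 215 CPM in pregnant and 118 and 105 CPM in lactating luminal libraries, and fell at both steps. In basal cells Rpl22 had 170.1 and 213 CPM in virgin, 171 and 168 CPM in pregnant and 128 and 123 CPM in lactating libraries.

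**Figure D4:**
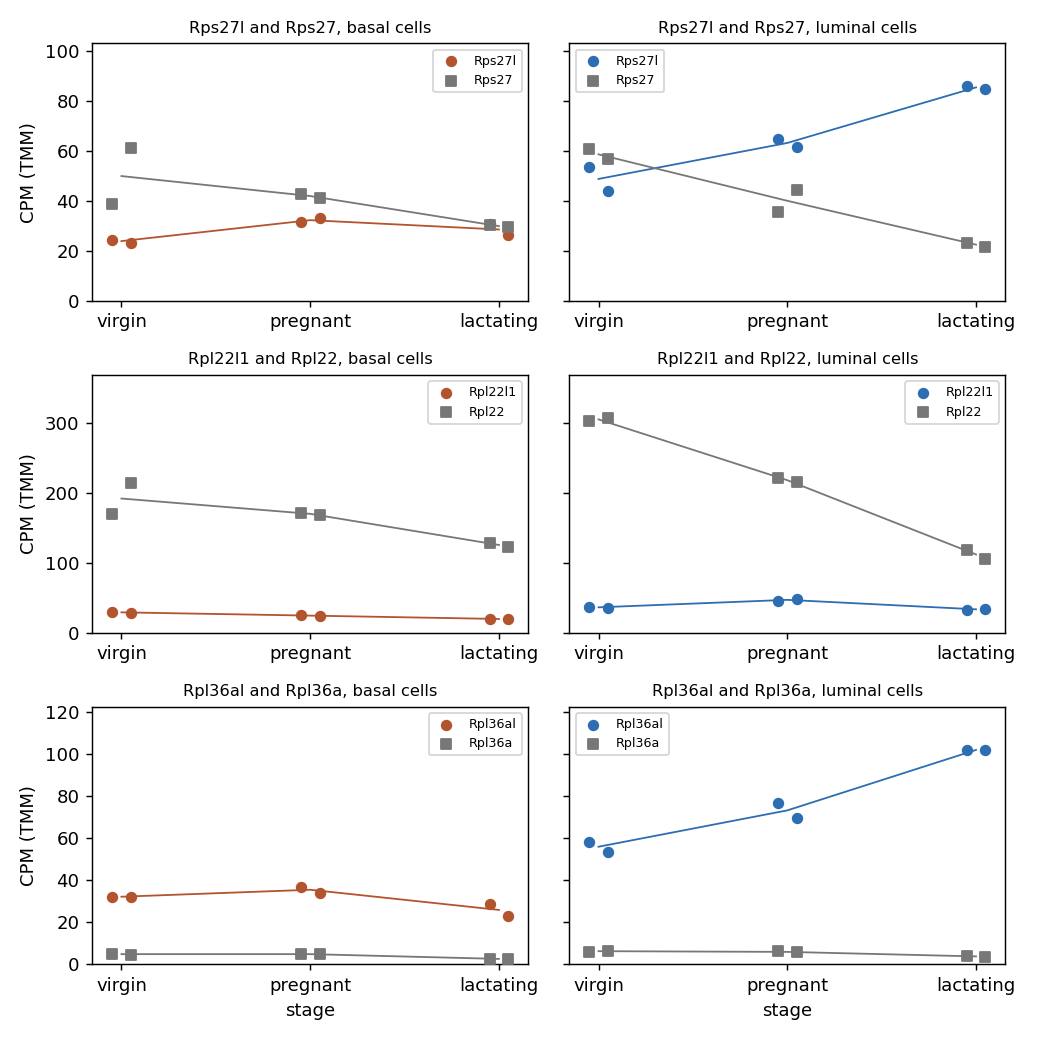
Levels in TMM-scaled CPM (y axis) of Rps27l with Rps27, Rpl22l1 with Rpl22 and Rpl36al with Rpl36a at each stage (x axis), in basal cells (left) and luminal cells (right); points are libraries and lines join means of 2. In luminal cells Rps27l reaches 85.0 to 85.9 CPM at lactation while Rps27 drops to 21.7 to 23.3 CPM; by library size alone Rps27l was lower in lactating than in pregnant luminal cells (-0.42).

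Ribosomal proteins left out by the symbol rule went the same way as members. Of 8 such genes, 5 fell and 1 rose in luminal cells at lactation relative to pregnancy, and 7 fell in basal cells (edgeR). Rps3a1 (-0.87 ± 0.12) and Rack1 (-0.86 ± 0.12) fell most in luminal cells, and Rpsa, the laminin receptor homolog, in basal cells (-1.10 ± 0.12). Rpl36al was the luminal exception under TMM scaling.

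Many members share sequence with processed copies in the genome, so their counts are uncertain as levels. Among the 79 members with GENCODE vM21 transcripts, the median share of 50-base stretches also found in a transcript of another gene was 35.9%, with a range from 0% to 95.1%. Rpl3l and Rpl39l were among those that shared none, and 26 members shared over 50%. Across members, shared sequence and mean CPM per kb had a Spearman rho of -0.05, given as a description. Named copies in the table, 36 rows in all, held 15.6% to 17.3% of the counts of members and copies together.

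For some genes a copy held most of the counts. Rpl37rt had 97837 counts and Rpl37 2374, and Rpl34-ps1 had 86341 counts and Rpl34 1705. Whether reads matching several places were counted is not stated in the labels. At lactation, members with much and little shared sequence had similar counts of falls. Of 34 tested members with at most 35% shared, 29 fell and 1 rose in luminal cells (median -0.64). Of 42 with more, 37 fell and 0 rose (median -0.66). In basal cells the medians were -0.62 in both classes.

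**Figure D5:**
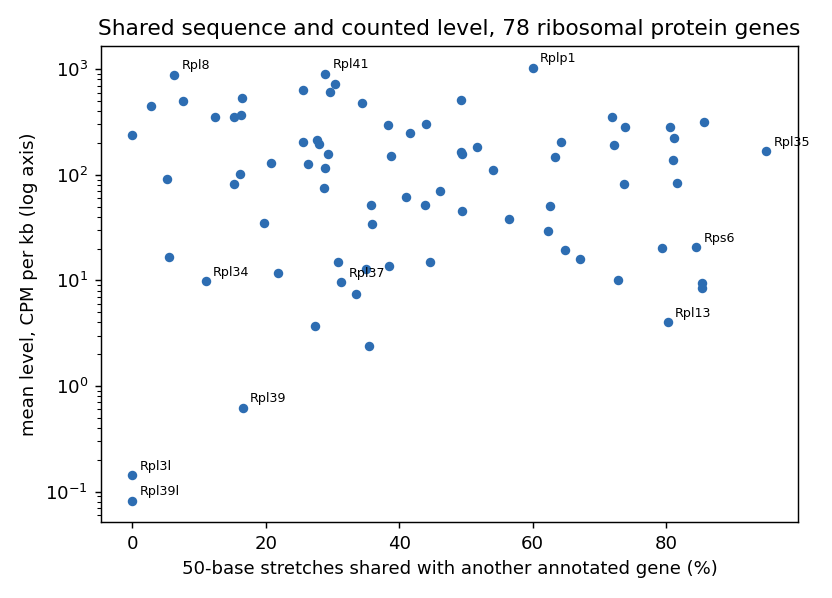
Share of each member's 50-base stretches that also occur in another annotated gene (x axis, %) and its mean TMM-scaled CPM per kb over 12 libraries (y axis, log scale), for the 78 members with transcripts and counts. Rplp1 at 1037 CPM per kb stands highest, and Rpl35 shares most, at 95.1%.

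The start of the transcript carries the pyrimidine tract, and RefSeq start windows were found for 60 of the 80 members. A run of at least 8 C or T on the coding strand within 30 bases of the start occurred in 58.3% of these members, against 25.8% of all 27025 genes with a promoter entry. A first base C followed by 4 bases of C or T occurred in 23.3% of members and 3.01% of all genes. Annotated starts can be off by several bases, and no run in the window says nothing of a tract at the true start.

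Windows of 30 bases are printed to show what such a run looks like. They hold 15 bases before the start and 15 from the start on, 5′ to 3′ on the coding strand. Printed are 6 of the members whose run is 9 bases or longer and 3 of those not called lower in luminal cells. Other members of both kinds are not printed. Capitals mark the run of C and T that covers or touches the start.
Rps27, chr3:90213634-90213663, - strand: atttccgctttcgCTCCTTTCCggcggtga
Rps9, chr7:3704026-3704055, + strand: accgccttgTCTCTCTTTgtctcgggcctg
Rps6, chr4:86857353-86857382, - strand: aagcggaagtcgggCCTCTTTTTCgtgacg
Rplp2, chr7:141447636-141447665, + strand: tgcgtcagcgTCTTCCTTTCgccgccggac
Rpl7a, chr2:26910792-26910821, + strand: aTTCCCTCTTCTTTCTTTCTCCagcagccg
Rps15a, chr7:118116133-118116162, - strand: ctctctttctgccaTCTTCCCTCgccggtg
Rps27l, chr9:66946071-66946100, + strand: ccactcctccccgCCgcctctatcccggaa
Rpl41, chr10:128549154-128549183, - strand: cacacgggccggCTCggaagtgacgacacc
Rps2, chr17:24720048-24720077, + strand: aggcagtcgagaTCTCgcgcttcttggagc

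The first 6 fell at lactation in luminal cells, by 0.43 (Rpl7a) to 0.997 (Rps9) on the log2 scale. Rps27l, Rpl41 and Rps2 have runs of 2 to 4 C or T at the printed start, but Rps27l has a run of 9 within 30 bases of it, and a second annotated start with a run of 0. Runs of 0 or 1 also stood at the annotated starts of Rpl22, Rpl10a, Rplp0, Rps19 and Rpl5, which fell by 0.91 to 1.08. Within 30 bases of a start, Rpl5 has a run of 9 and Rpl10a a run of 10 at its second start. The longest such runs of Rpl22, Rplp0 and Rps19 are 5, 7 and 7. Rps25, also not called lower in luminal cells (-0.25), has a run of 14 within 30 bases of its start. Rpl32l, with a small change there (-0.31), has a run of 10 at its start. Whether runs and changes go together over the members was not tested. Rpl41 and Rps2 both fell in basal cells.

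Motifs were searched on both strands over 250 bases before and 50 after the start. CCGGAAG, the core bound by GABP and other ETS factors, was in 40.0% of members and 9.93% of all genes. AAGATGGC, a YY1 motif, was in 8.33% and 3.19%, and the GC box GGGCGG in 58.3% and 38.2%. A match describes the sequence and is no sign of binding.

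Other parts of the translation machinery fell at lactation too. Of 36 translation factors, 23 fell and 1 rose in luminal cells and 22 fell in basal cells (edgeR; medians -0.46 and -0.34). Over all tested genes 24.6% were lower and 23.6% higher in luminal cells, and 17.3% lower and 15.7% higher in basal cells. Pabpc1, the poly(A)-binding protein and itself encoded by a pyrimidine-tract messenger RNA, fell most in luminal cells (-1.32 ± 0.13), and Eef1g, a subunit of elongation factor 1, in basal cells (-0.87 ± 0.11). Of 38 ribosome biogenesis genes, 19 fell and 1 rose in luminal cells (median -0.37), and 34 fell in basal cells (median -0.99). The nucleolar chaperone Npm1 led in luminal cells (-1.35 ± 0.11) and Wdr43, of the early small-subunit precursor, in basal cells (-1.92 ± 0.17). In the test of the luminal minus the basal change, 23 biogenesis genes were higher and 4 lower, against 18.2% and 17.9% of all genes.

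Mitochondrial ribosomal protein genes had a positive median in luminal cells under TMM scaling. No other scaling is given for this list. Of 77 tested, 26 rose and 5 fell in luminal cells at lactation (median 0.22), against 23.6% of all genes higher and 24.6% lower. In basal cells 0 rose and 14 fell (median -0.15), against 15.7% higher and 17.3% lower, so the share lower is near that of all genes. Mrpl53 rose most in luminal cells (1.02 ± 0.14), and Mrpl12 fell most in basal cells (-0.93 ± 0.16). The luminal change exceeded the basal one for 25 of these genes and lay below it for 1 (edgeR), against 18.2% and 17.9% of all genes.

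Among 18 genes known to regulate ribosomal protein synthesis, 5 rose and 7 fell in luminal cells and 3 rose and 4 fell in basal cells at lactation. Against all genes (23.6% higher and 24.6% lower in luminal, 15.7% and 17.3% in basal cells) these counts are not read as a result about the list. Myc, which activates ribosome genes, fell by 1.16 ± 0.16 on the log2 scale in luminal cells and had a value of 0.29 ± 0.16 in basal cells, which did not pass. Mxd1, an antagonist of Myc, changed most in luminal cells (1.403 ± 0.24). Mxi1, another antagonist, changed most in basal cells (0.75 ± 0.17). Larp1, which binds the pyrimidine tract, fell in basal cells (-0.52 ± 0.11). Under TMM scaling, the only one given for this list, the others called higher in luminal cells were Mtor (0.40), Rptor (0.45), Rps6kb1 (0.28) and Larp4 (0.42). Besides Myc, those lower in luminal cells were Max (-0.82), Mxd4 (-0.68), Yy1 (-0.68), Tbpl1 (-0.53), Eif4ebp2 (-0.51) and Gabpa (-0.49). Mxd4 is also an antagonist of Myc. In basal cells Mtor (0.55) and Mxd4 (0.28) also rose, and Rps6kb1 (-0.38), Larp4 (-0.38) and Yy1 (-0.32) also fell. Apart from Mxd1 and Mxi1, these genes are named here after their values were seen. None of these lists was set against the members by a test.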

How the data were processed

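RNA from sorted mammary luminal and basal cells was sequenced in 12 libraries. The authors' deposited values are whole-number read counts per gene, not normalised; CASAVA 1.8.2, Subread 1.4.4 and featureCounts are named in the submitters' processing notes, with builds GRCm38 and mm10. Neither the strand setting nor the treatment of multi-mapping reads is stated there. The single-library files and the joint table differed in 0 counts. Symbols were found for 25275 of 27179 identifiers, and 1904 had none.

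Genes were filtered with filterByExpr (minimum count 10), scaled by TMM, and fitted over all 12 libraries with 6 group means by edgeR 4.0.16 (quasi-likelihood F-test, robust, R 4.3.3). P-values were adjusted by Benjamini-Hochberg over all 15969 tested genes, at a threshold of 0.05. Fits were tested on simulated data. Alternatives were library size alone, library size without milk protein genes, DESeq2 size factors, scaling to the members' sum, no filter, the DESeq2 1.42.0 Wald test, a replicate block, leaving out each library and, chosen after seeing the data, adding named copies to their gene.

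Within a stage, the luminal and the basal library with the same number deviated together from their group means (r = 0.244 in virgin, 0.337 in pregnant and 0.150 in lactating animals, over 10905 genes with a mean of at least 5 CPM), and all 3 exceed 0.1, the level set for treating numbers as pairs. Groups of different stages, which cannot be paired, gave r between -0.243 and 0.141, so the pairing is a hint from the data and is not stated in the labels.

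Members and lists were chosen with earlier results of these data known. Named were the 5 members called with the largest change in each direction of each comparison, the 3 highest and 3 lowest by level, the 3 members farthest on each side of the members' median, genes fixed by role, paralog pairs, and the called gene that changed most in each pathway list. Some results are not reported here. Shared sequence was read from GENCODE vM21 transcripts and promoters from RefSeq GRCm38.p6.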

Additional observations from a re-analysis of the deposited data

Results flagged for a closer look

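In 8 ribosomal protein genes, the test of the difference itself found a lactation change (lactating over pregnant) that was not the same in luminal and basal cells, 4 higher and 4 lower of 77, against 18.2% and 17.9% of all genes. The luminal minus basal log2 difference was 0.77 for Rpl41, 0.61 for Rps27l, 0.43 for Rps2 and 0.41 for Rps25, and by library size alone these were -0.04, -0.19, -0.38 and -0.40. It was -0.58 for Rpl7, -0.53 for Rpl22, -0.45 for Rps9 and -0.41 for Rpl10a. With the members' own sum as the scale, Rpl41 (0.78), Rps27l (0.63), Rpl7 (-0.56) and Rpl22 (-0.51) passed. The Rpl41 call held in all 12 fits with 1 library left out, that of Rps27l in 11, and each of the other 6 was lost in at least 5.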

How the results depend on the processing

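With 1 library left out, the members called numbered 1 to 5 between pregnant and virgin luminal cells, 53 to 69 between lactating and pregnant luminal cells, 55 to 68 between lactating and virgin luminal cells, 1 to 9, 53 to 68 and 64 to 72 in the same comparisons of basal cells, 28 to 54, 47 to 58 and 44 to 56 between basal and luminal cells of virgin, pregnant and lactating animals, and 0 to 8 and 2 to 10 for the luminal minus basal changes at pregnancy and lactation. By library size alone 65 were called between pregnant and virgin luminal cells (main 4), 18 in basal cells (1 higher, 17 lower), 37 and 62 (59 higher) between basal and luminal cells of pregnant and lactating animals, and 9 and 65 for the luminal minus basal changes. Library size without milk protein genes gave 15 in luminal and 16 in basal cells for pregnancy. Scaling to the members' own sum, which removes their shared change by construction, gave 12, 20, 3 and 11 calls in the lactating comparisons (luminal against pregnant and virgin, basal against pregnant and virgin), 18, 18 and 33 between basal and luminal cells, and 1 and 4 for the differences. For the pregnancy difference DESeq2 called 2 and the replicate block 3; the block moved no other count by over 1.5 times. Without the filter 5 lactation differences were called.

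By library size alone the sign turned for Rps27l in luminal cells (-0.13 at pregnancy, -0.42 and -0.55 for lactating against pregnant and virgin) and for Rpl41 (-0.72 and -1.11), and for the differences of Rpl41 (-0.039), Rps27l (-0.19), Rps2 (-0.38) and Rps25 (-0.40). Rpl41 between lactating and virgin luminal cells was -0.10 without milk genes. With copies added, the basal over luminal values turned for Rpl13 (-0.27 pregnant, -0.51 lactating), Rpl34 (-0.35) and Rps12 (-0.078). Rpl28, Rpl9, Rpl10a and Rpl7 have no named copy, so this setting could not test them. The members' mean share without the 10 highest genes was 2.20%, 1.96% and 1.15% in virgin, pregnant and lactating luminal cells and 1.27% and 0.804% in pregnant and lactating basal cells; without milk genes it was 1.89% and 1.09% in pregnant and lactating luminal cells. The causes were not tested. Genes under about 100 counts, such as Rpl3l, are limited by depth.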
